A study of Mus musculus with 12 samples.

Results

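The 9 genes described here encode Paneth cell alpha-defensins: Defa3, Defa5, Defa17, Defa20, Defa21, Defa22, Defa23, Defa24 and Defa26. They were taken by symbol from 35791 genes counted in small bowel RNA, and each had 1 entry in every library. Alpha-defensins are small cationic peptides, named cryptdins in the mouse, that are held together by disulphide bonds and kill bacteria by disturbing their membranes. Paneth cells at the base of the small bowel crypts make them as inactive precursors, store them in secretory granules and release them into the crypt lumen; in the mouse the matrix metalloproteinase Mmp7 cuts the precursor to the active peptide. Paneth cells also express Lyz1, the gene of lysozyme, and Pla2g2a, a gene of secretory phospholipase A2. Paneth cell genes depend on Wnt signalling through beta-catenin and TCF factors, and the cells are more numerous toward the ileum.

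RNA had been sequenced in 12 libraries from male C57BL/6 mice aged 8 to 10 weeks, with 3 libraries in each of 4 groups. Ileocecal resection removes the end of the ileum with the cecum, and 2'-fucosyllactose (2'-FL), an oligosaccharide of human milk, was supplied at 2.5 g/L from the day of resection. The groups are bowel before resection in the unsupplemented arm (Pre control) and in the 2'-FL arm (Pre 2'-FL), and bowel 8 weeks after resection, either unsupplemented (Post control) or given 2'-FL (Post 2'-FL). The labels put the start of 2'-FL on the day of resection but also list the Pre 2'-FL bowels as supplemented, and their protocol places the collection of all bowels after resection; here each library was placed by its own label. The same age of 8 to 10 weeks is listed for the Pre libraries and for the Post libraries, 8 weeks after resection. Any difference in age between Pre and Post bowel cannot be told apart from resection. The labels also describe a period on liquid diet around the surgery, for both arms. The segment of bowel is not stated, and nothing ties libraries to single mice, so that a p-value measures the spread between these libraries, which may be technical. Totals ran from 5663275 to 9385266 counts per library, and the 9 genes took 1.35% to 4.56% of all counts in the Pre libraries, 0.601% to 0.680% in Post control and 0.912% to 1.84% in Post 2'-FL.

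All 9 genes lie on chromosome 8 of mm10 between 21025545 and 21735471, a span of 709.927 kb. Each had 2 exons in the transcript used (GENCODE M21, mm10). From left to right they are Defa21 (Entrez 66298, 21025545 to 21026517, 418 nt), Defa23 (Entrez 497114, 21055040 to 21056016, 411 nt), Defa22 (Entrez 382059, 21162277 to 21163249, 419 nt), Defa3 (Entrez 13237, 21287409 to 21288377, 410 nt), Defa5 (Entrez 13239, 21297394 to 21298375, 376 nt), Defa20 (Entrez 68009, 21509258 to 21510237, 425 nt), Defa26 (Entrez 626708, 21618168 to 21618972, 372 nt), Defa17 (Entrez 23855, 21655767 to 21656736, 397 nt) and Defa24 (Entrez 503491, 21734494 to 21735471, 419 nt). The files list 39 alpha-defensin genes, 28 annotated as protein coding and 11 as pseudogenes, many under names that RefSeq GRCm38.p6 has since replaced (Defa-rs7 is Defa31 there and Gm15308 is Defa32).

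The genes resemble one another so closely that reads from one can also match another, and the deposited counts are partly fractional. The sequences show how close the copies are. The last stretch of each coding sequence, which encodes the mature peptide, is shown because it holds 40 of the 60 coding differences between Defa21 and Defa24; bases are counted from the start codon, from 181 to 282 (to 288 in Defa20), and capitals mark bases that differ from Defa24 in a MAFFT alignment. Defa-rs7 is not a member and is shown because its coding sequence is identical to that of Defa23.
Defa24: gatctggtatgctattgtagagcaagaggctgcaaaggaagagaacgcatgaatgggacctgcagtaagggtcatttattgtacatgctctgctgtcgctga
Defa23: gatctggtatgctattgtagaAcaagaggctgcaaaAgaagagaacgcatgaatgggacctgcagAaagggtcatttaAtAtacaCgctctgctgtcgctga
Defa-rs7: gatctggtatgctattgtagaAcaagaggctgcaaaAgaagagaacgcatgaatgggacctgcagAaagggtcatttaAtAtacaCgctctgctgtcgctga
Defa17: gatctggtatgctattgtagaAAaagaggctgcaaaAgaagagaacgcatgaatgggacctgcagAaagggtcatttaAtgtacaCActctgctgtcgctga
Defa3: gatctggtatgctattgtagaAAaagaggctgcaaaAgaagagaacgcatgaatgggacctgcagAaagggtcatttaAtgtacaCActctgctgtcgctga
Defa26: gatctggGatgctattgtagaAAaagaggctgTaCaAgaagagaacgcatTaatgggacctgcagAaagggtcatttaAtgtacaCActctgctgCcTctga
Defa5: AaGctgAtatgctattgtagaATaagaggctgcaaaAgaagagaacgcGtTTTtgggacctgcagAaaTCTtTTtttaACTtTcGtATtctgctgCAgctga
Defa21: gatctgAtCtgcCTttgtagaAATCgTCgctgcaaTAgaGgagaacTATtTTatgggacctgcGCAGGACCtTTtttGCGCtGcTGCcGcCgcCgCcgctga
Defa22: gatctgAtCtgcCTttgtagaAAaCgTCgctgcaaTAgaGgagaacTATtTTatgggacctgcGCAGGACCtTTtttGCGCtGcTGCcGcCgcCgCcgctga
Defa20: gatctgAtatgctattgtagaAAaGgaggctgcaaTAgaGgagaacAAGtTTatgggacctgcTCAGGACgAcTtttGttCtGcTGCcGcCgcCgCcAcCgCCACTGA
Over this stretch the number of capitals was 6 in Defa23, 7 in Defa3 and Defa17, 13 in Defa26, 25 in Defa5, 40 in Defa21 and Defa20 and 39 in Defa22. By identity of the whole coding sequence, 3 groups were formed at a threshold of 87%, set after the values had been seen: Defa24 with Defa3, Defa17, Defa23 and Defa26, called the Defa24 group below; Defa21 with Defa20 and Defa22, called the Defa21 group; and Defa5 alone. Pairs within a group were 88.5% to 100% identical and pairs across groups 78.7% to 85.5%.

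**Figure D1:**
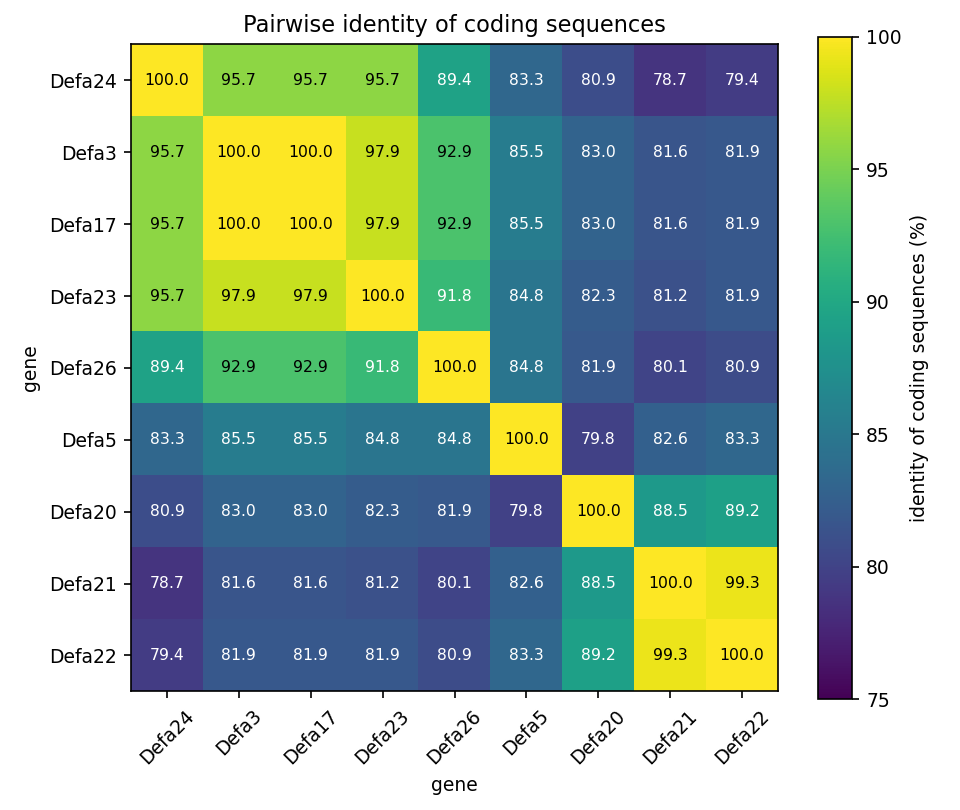
Identity of the coding sequences of the 9 genes in percent, each gene against each other gene. Defa3 and Defa17 are 100% identical, Defa21 and Defa22 99.3%, and the lowest value, 78.7%, is between Defa21 and Defa24.

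Shared sequence set how far single genes could be told apart. Of the stretches of 50 bases in a transcript, 71.9% occurred in no other alpha-defensin transcript for Defa24 and 59.8% for Defa26. The share was 27.1% for Defa21 and 25.1% for Defa22, 8.05% for Defa17, 7.76% for Defa3, 5.25% for Defa23, 0.306% for Defa5 and 0 for Defa20. Defa23 and Defa-rs7 had equal counts in all 12 libraries, with a largest difference of 0.824 counts at 3057 to 22789 counts (values within 1 count were taken as equal). The ratio of Defa3 to Defa17 stayed between 0.899 and 0.932 and that of Defa22 to Defa21 between 0.919 and 1.00, while the ratio of Defa21 to Defa24 ran from 0.114 to 0.440 over the libraries. The 9 genes are therefore not 9 separate observations. Most stretches of 50 bases in Defa24 and Defa26 were their own, but what part of their counts came from these is not known. Defa3 with Defa17 and Defa21 with Defa22 are each closer to 1 reading of a set of copies. So are Defa20 with Defa2 and Gm15308, and Defa5 with Gm15315 (98.6% identical).

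Promoters are shown for the members found in the RefSeq promoter table (4 of 9, build GRCm38.p6), because the genes moved together in the data below. The 130 bases before the start are given on the strand of the gene, at chr8:21509128-21509257 for Defa20, chr8:21025415-21025544 for Defa21, chr8:21162147-21162276 for Defa22 and chr8:21054910-21055039 for Defa23. Capitals mark TATAAA, which begins 31 bases before the start (33 in Defa23), and TCAAAG, which is the TCF motif CTTTGA on the other strand.
Defa20: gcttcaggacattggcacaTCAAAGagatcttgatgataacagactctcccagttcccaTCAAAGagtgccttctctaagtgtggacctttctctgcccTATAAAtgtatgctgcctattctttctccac
Defa21 and Defa22: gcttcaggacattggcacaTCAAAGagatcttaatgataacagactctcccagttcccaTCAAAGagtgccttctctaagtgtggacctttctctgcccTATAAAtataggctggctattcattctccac
Defa23: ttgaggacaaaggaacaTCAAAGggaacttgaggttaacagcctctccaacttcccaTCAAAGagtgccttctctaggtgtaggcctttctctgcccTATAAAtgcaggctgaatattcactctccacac
Defa21 and Defa22 were identical over these 130 bases, and all 4 held TCAAAG at 2 places, 111 and 71 bases before the start (113 and 73 in Defa23). Over the 32851 promoters of 300 bases in the table, searched on both strands, 13.6% held TATAAA, 16.0% held CTTTGA and 1.73% held CTTTGA at 2 or more places. Of the 16 alpha-defensin promoters there, 15 held TATAAA, 13 held CTTTGA and 9 held it at 2 or more places. The related letters CTTTGT were in 9 of the 16 (18.7% of all promoters) and TTTATG, the caudal factor motif, in 0 of the 16 (11.9% of all). A match describes the letters and does not show that a factor binds there.

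Before resection Defa24 had the highest level of the 9. Per length, in mean CPM (counts scaled by TMM to a common library size) per kb of transcript over the Pre control libraries, the order was Defa24 at 21894, Defa21 at 9102, Defa22 at 8941, Defa20 at 6776, Defa17 at 6751, Defa3 at 5997, Defa23 at 4610.0, Defa5 at 2813 and Defa26 at 466. The levels of the 9 genes moved together between libraries (SD from 221 CPM per kb in Defa26 to 7619.5 in Defa24), so that neighbours were compared within each library. Defa20 and Defa17 changed places between libraries, at a ratio of 0.964 to 1.03, and Defa21 and Defa22 were nearly equal, at 1.00 to 1.03. The other neighbours kept this order in 3 of 3 Pre control libraries, with ratios from 1.12 for Defa17 to Defa3 upward. In Post control the order was different: Defa24 at 6002 was followed by Defa17 at 1741, Defa3 at 1551 and Defa23 at 1514, with Defa21, Defa22 and Defa20 at 1329, 1273 and 887 CPM per kb.

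In the control arm all 9 alpha-defensins fell after resection. Their summed level was 20487, 23594 and 39525 CPM in the Pre control libraries and 6543, 6666 and 5617 CPM in Post control, a mean 4.44-fold lower (27869 ± 10214 against 6275 ± 573, SD, n = 3). The 3 Post control libraries lay close together and far below every Pre control library. In a bulk sample, fewer Paneth cells and less RNA per Paneth cell cannot be told apart. A difference between Pre and Post bowel in segment or age cannot be told apart from these either.

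Defa24 stood at 6855, 7851 and 12815 CPM in Pre control, at 4169, 13314 and 14363 in Pre 2'-FL, at 2584, 2691 and 2269 in Post control, and at 10989, 5911 and 4886 in Post 2'-FL. The Post control libraries lay below all other libraries. Defa24, the most abundant of these transcripts, fell by 1.87 ± 0.45 on the log2 scale in the control arm (fitted change ± SE; adjusted p = 0.0214, edgeR's quasi-likelihood test with the Benjamini-Hochberg method across all 13154 genes tested). Defa21 stood at 2801, 3040.5 and 5573 CPM in Pre control, at 1373, 5852 and 3339.6 in Pre 2'-FL, at 514, 628 and 525 in Post control, and at 1635, 1814 and 556 in Post 2'-FL. The Post control libraries were again below every Pre library, and Post 2'-FL 3 lay among them. Defa22 stood at 2789.8, 3045 and 5404 CPM in Pre control, at 1345, 5854 and 3268 in Pre 2'-FL, at 491, 626 and 483 in Post control, and at 1547, 1667 and 521 in Post 2'-FL. Defa22, whose coding sequence is 99.3% that of Defa21, followed it library by library. Defa20 stood at 2025, 2539 and 4075 CPM in Pre control, at 1022, 4281 and 2163 in Pre 2'-FL, at 349, 469 and 313 in Post control, and at 719, 956 and 263 in Post 2'-FL. In Defa20 the lowest value was in Post 2'-FL 3. In the control arm Defa20 changed by -2.93 ± 0.52, Defa22 by -2.81 ± 0.52 and Defa21 by -2.78 ± 0.52, with adjusted p from 0.00657 to 0.00751.

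Defa3 stood at 1804, 2179.9 and 3392 CPM in Pre control, at 1091, 3545 and 4113 in Pre 2'-FL, at 694, 624 and 589 in Post control, and at 2070.3, 1319.9 and 1062 in Post 2'-FL. Defa17 stood at 1963, 2371 and 3707 CPM in Pre control, at 1178, 3868 and 4489.6 in Pre 2'-FL, at 760.1, 681 and 632 in Post control, and at 2255, 1435 and 1182 in Post 2'-FL. These copies with identical coding sequences changed by like amounts in the control arm, -1.95 ± 0.42 and -1.96 ± 0.42. Defa23 stood at 1407, 1568 and 2709 CPM in Pre control, at 881, 2778 and 3613 in Pre 2'-FL, at 768, 559 and 539.6 in Post control, and at 2389.9, 1382 and 1233 in Post 2'-FL. Defa23 changed by -1.61 ± 0.44 (adjusted p = 0.0333), and so did Defa-rs7, which has its counts. Defa5 stood at 734, 854 and 1585 CPM in Pre control, at 409, 1608 and 1224 in Pre 2'-FL, at 302, 324 and 223 in Post control, and at 1201, 852 and 579 in Post 2'-FL. Here Pre 2'-FL 1 was the lowest Pre library, as in all 9 genes, and the 3 Post 2'-FL libraries lay among the Pre libraries. Defa5 changed by -1.90 ± 0.44 in the control arm. Defa26 stood at 108, 145 and 266 CPM in Pre control, at 83.8, 265 and 334 in Pre 2'-FL, at 81.0, 63.4 and 43.5 in Post control, and at 213, 196 and 145 in Post 2'-FL. Defa26, the least abundant member at 347 to 2238 counts per library, had the smallest change, -1.47 ± 0.43 (adjusted p = 0.0432).

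**Figure D2:**
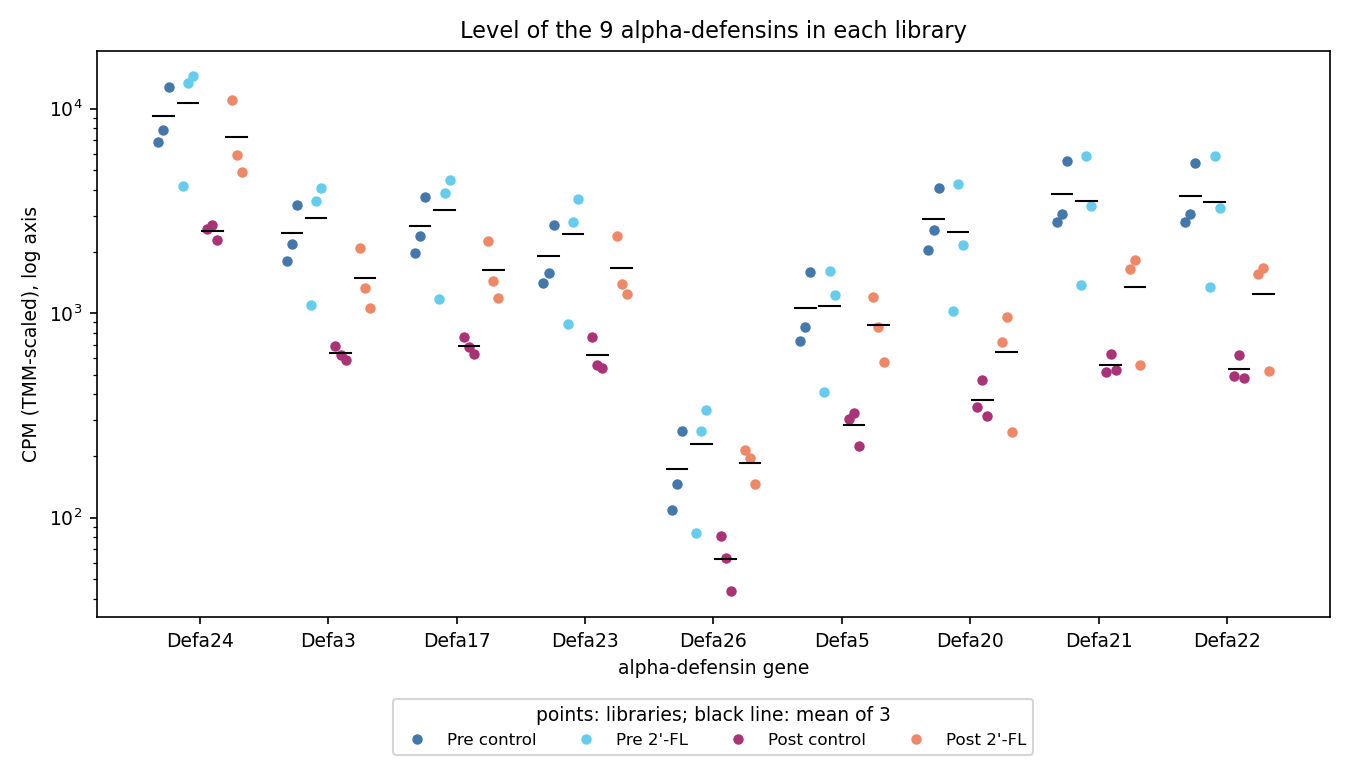
CPM of each of the 9 genes in each of the 12 libraries (points) with the mean of the 3 libraries of a group (black line), on a log axis. In every gene the 3 Post control libraries lie below all 3 Pre control libraries; the Post 2'-FL libraries lie higher than Post control in 6 genes and overlap it in Defa20, Defa21 and Defa22.

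All 9 genes passed the test as lower in the control arm, with adjusted p from 0.00657 to 0.0432 and a median log2 change of -1.95; 6.33% of the 13154 genes tested were called lower, and the median over all of them was -0.05. In all 9 the Post control and Pre control libraries did not overlap, as in 17.6% of all genes in that direction. The calls of the members outside the Defa21 group depended on single libraries: Defa20, Defa21 and Defa22 alone were called without Pre control 3, without Post control 1 or without Post control 2, while 6 members were called without Post control 3 and 7 without Pre control 2. Every change kept its sign in these fits.

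Levels in these libraries also followed transcript length, and the alpha-defensins, at 372 to 425 nt, are among the shortest genes. Among the 32 other tested genes of 350 to 450 nt, the median log2 change was 0.43 in the control arm and 1.61 in the 2'-FL arm. Over all genes tested the medians were -0.05 and -0.13. Each comparison is therefore also given after the trend with length and GC content had been fitted in every library and entered in the model, which is called corrected below. With the correction all 9 genes were again lower in the control arm, from -1.32 to -2.82 with adjusted p from 0.00515 to 0.0267 (5% of all genes called lower). The 32 like-sized genes had a median of 0.46 after correction. Their corrected median was 0.54 in the 2'-FL arm, against 0.02 over all genes tested, so that a shift remained at this length. Corrected, 6 members were called lower in the control arm without Post control 2, 7 without Pre control 3 and 8 without Post control 3.

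In the 2'-FL arm 3 of the 9 genes were called lower after resection as tested, a share close to that of all genes, and all 9 with the correction. The summed level was 11552, 41365 and 36907 CPM in Pre 2'-FL and 23021, 15533 and 10427 CPM in Post 2'-FL, a mean 1.83-fold lower, and the groups overlapped through Pre 2'-FL 1, which was the lowest Pre library. As tested, Defa20 (-1.94 ± 0.51, adjusted p = 0.00502), Defa22 (-1.49 ± 0.49, adjusted p = 0.0197) and Defa21 (-1.40 ± 0.49, adjusted p = 0.0259) were called lower in edgeR's test, while 30% of all genes were. Only in Defa20 did the groups not overlap, against 33.7% of all genes in that direction. The other 6 had log2 changes from -0.30 to -0.97 and were not called (adjusted p from 0.0571 to 0.566). All genes tested had a median of -0.13 in this comparison, and relative to it the median of the members was -0.83.

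With length and GC content corrected, the summed level was 18178, 49369.5 and 41594 CPM in Pre 2'-FL and 8471, 9649.7 and 5409 in Post 2'-FL, and the corrected sums no longer overlapped. All 9 genes were then called lower, from -1.66 ± 0.35 in Defa26 to -3.14 ± 0.50 in Defa20, with adjusted p from 0.000345 to 0.00252 (14.8% of all genes called lower). Defa24 changed by -1.91 ± 0.36 and Defa5, at -0.30 as tested, by -1.94 ± 0.35. All 9 were called in the corrected fit whichever of the 12 libraries was left out. As tested, 1 member (Defa20) was called when Pre 2'-FL 2 or Post 2'-FL 3 was left out, 6 when Pre 2'-FL 1 was and 5 when Post 2'-FL 1 was.

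**Figure D3:**
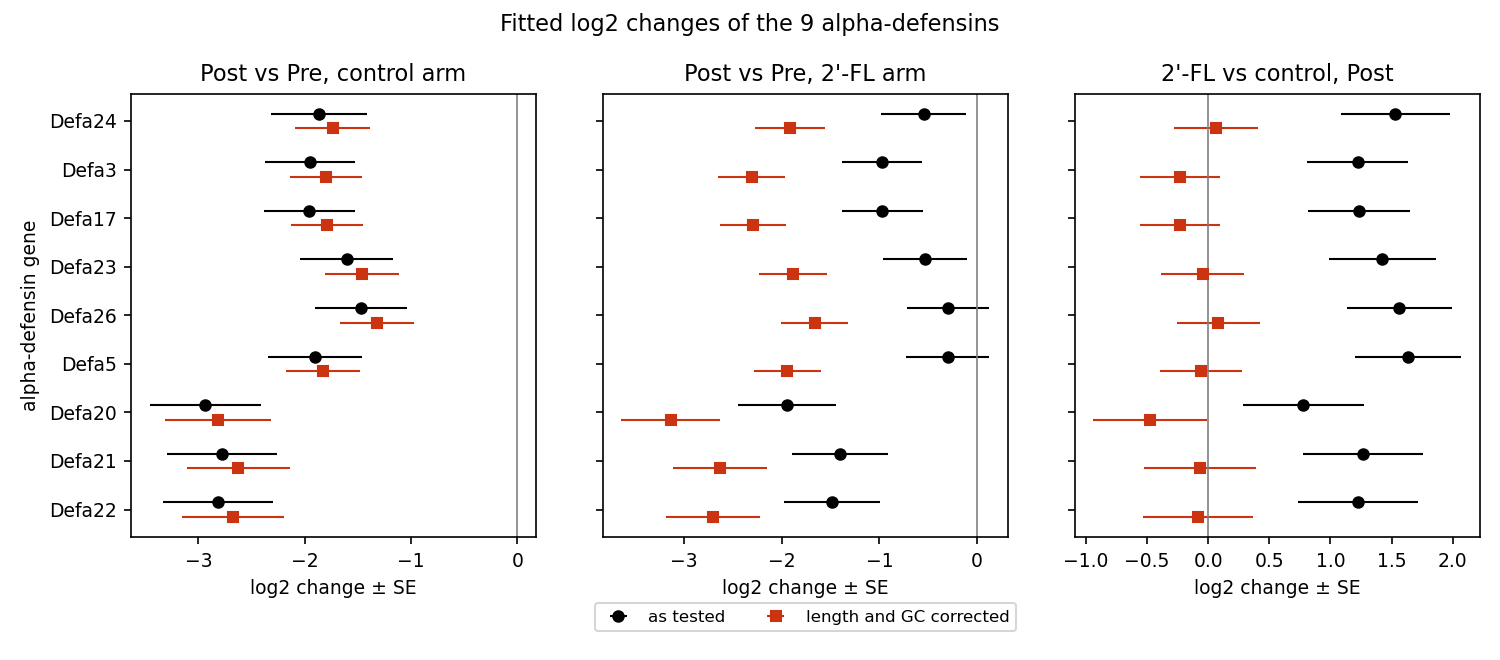
Fitted log2 changes (points) with their standard errors (bars) for the 9 genes in the 3 comparisons named above the panels, as tested (black circles) and with length and GC content corrected (red squares). Both fits lie left of 0 in the control arm; in the 2'-FL arm the corrected values lie further left, and for 2'-FL against control after resection they lie around 0, between -0.47 and 0.08.

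Between supplemented and unsupplemented bowel after resection, 6 genes were called higher with 2'-FL as tested and 0 after correction. The summed level averaged 16327 ± 6334 CPM in Post 2'-FL and 6275 ± 573 CPM in Post control, a ratio of 2.60. Defa5 (1.63 ± 0.44), Defa26 (1.56 ± 0.43), Defa24 (1.53 ± 0.45), Defa23 (1.42 ± 0.44), Defa17 (1.23 ± 0.42) and Defa3 (1.22 ± 0.41) were called higher in Post 2'-FL, with adjusted p from 0.00975 to 0.031 in edgeR's test, and in these 6 the libraries did not overlap. Of all genes 18.8% were called higher and 25.2% did not overlap in that direction. Defa21, Defa22 and Defa20, at 1.26, 1.22 and 0.78, were not called (adjusted p from 0.0547 to 0.225), and Post 2'-FL 3 lay within the Post control range in Defa21 and Defa22 and below it in Defa20. The 32 other genes of like length had a median of 1.19 in the same comparison, close to the 1.26 of the members. The count fell to 1 without Post 2'-FL 1 (Defa26) or without Post control 3 (Defa5), to 3 without Post control 2 and to 4 without Post control 1.

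With the correction, 0 of the 9 differed between the Post groups in edgeR's test, and 0 had an unadjusted p under 0.05 (10.3% of all genes called higher). The corrected sums were 8009.7, 7028 and 9552 CPM in Post control and 8471, 9649.7 and 5409 CPM in Post 2'-FL, and they overlapped. The 32 other genes of like length had a corrected median of -0.30 here, with 4 called lower and 5 higher. Defa24 stood at 0.06 ± 0.34 and Defa5 at -0.06 ± 0.34, and the lowest value was -0.47 ± 0.47 in Defa20. Standard errors of 0.33 to 0.47 leave room for changes of that size in either direction, so that equal levels are not shown. DESeq2, without the correction, called 8 of the 9 higher and limma-voom 6. The shares of all genes given here are those of edgeR's test, so that these counts have no share of their own tool beside them.

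**Figure D4:**
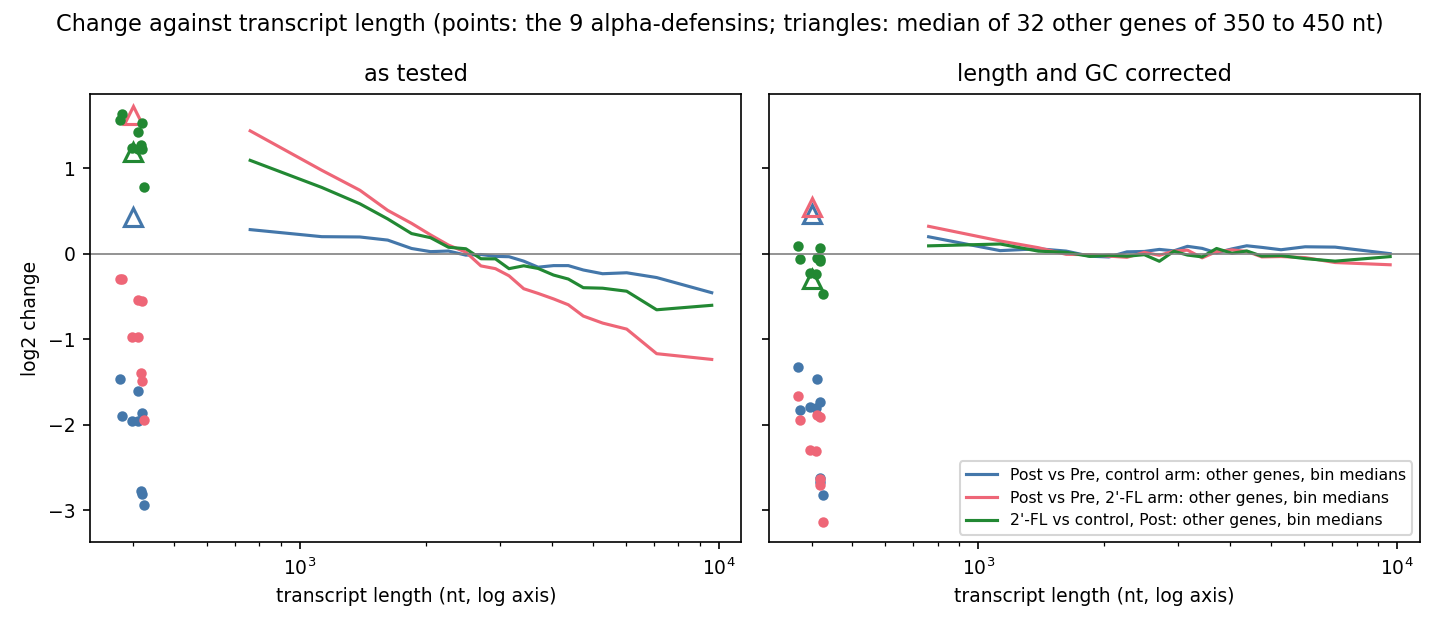
Log2 change against transcript length on a log axis, as tested (left) and with length and GC content corrected (right). Lines join the medians of 20 bins of other genes, points are the 9 alpha-defensins and open triangles the median of 32 other genes of 350 to 450 nt. As tested, short genes lie high in both comparisons with Post 2'-FL, and the alpha-defensins lie below the like-sized genes in both arms (medians of -1.95 against 0.43 and of -0.97 against 1.61).

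Before resection the arms did not differ detectably in these genes. Between Pre 2'-FL and Pre control the log2 differences ran from -0.21 in Defa20 to 0.39 in Defa26, with 0 of 9 called by edgeR, DESeq2 or limma-voom and 0 at an unadjusted p under 0.05 (0 of all genes were called higher and 0.0152% lower). The spread within Pre 2'-FL was wide, from 11552 to 41365 CPM in the sum, and SE of 0.41 to 0.49 would hide differences of that order. The change after resection was not shown to differ between the arms: the interaction (2'-FL arm minus control arm) ran from 0.98 in Defa3 to 1.60 in Defa5, and 0 of 9 were called (lowest adjusted p = 0.0832, 1 gene at an unadjusted p under 0.05; 7.47% of all genes were called higher). DESeq2 called 1 member, Defa5, and limma-voom called 0, and edgeR also called Defa5 without Pre 2'-FL 2. Corrected, the interaction ran from -0.51 to -0.01 with 0 called, and of all genes tested 0 were called higher and 0 lower.

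In the control arm the make-up of the alpha-defensin signal also differed: the Defa21 group held a smaller share after resection and Defa24 a larger one. The Defa21 group (Defa20, Defa21 and Defa22) held 37.2, 36.6 and 38.1% of the 9 genes' CPM in the Pre control libraries and 20.7, 25.8 and 23.5% in Post control. The libraries did not overlap. In the 2'-FL arm the share was 32.4, 38.6 and 23.8% before resection and 16.9, 28.6 and 12.8% after it, and there Pre 2'-FL 3 at 23.8% and Post 2'-FL 2 at 28.6% crossed. Defa24 alone held 32.2% to 38.9% in the Pre libraries and 38.1% to 47.7% in the Post libraries. Defa26, also of the Defa24 group, went from 0.529% to 0.905% in the Pre libraries to 0.774% to 1.40% in the Post libraries. These shares compare genes of nearly equal length within a library; they were looked at after the single changes had been seen, and no test was made of them. In the control arm the median log2 change was -2.81 in the 3 genes of the Defa21 group and -1.87 in the 5 of the Defa24 group, and corrected -2.67 and -1.74; in the 2'-FL arm, corrected, it was -2.70 and -1.91.

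**Figure D5:**
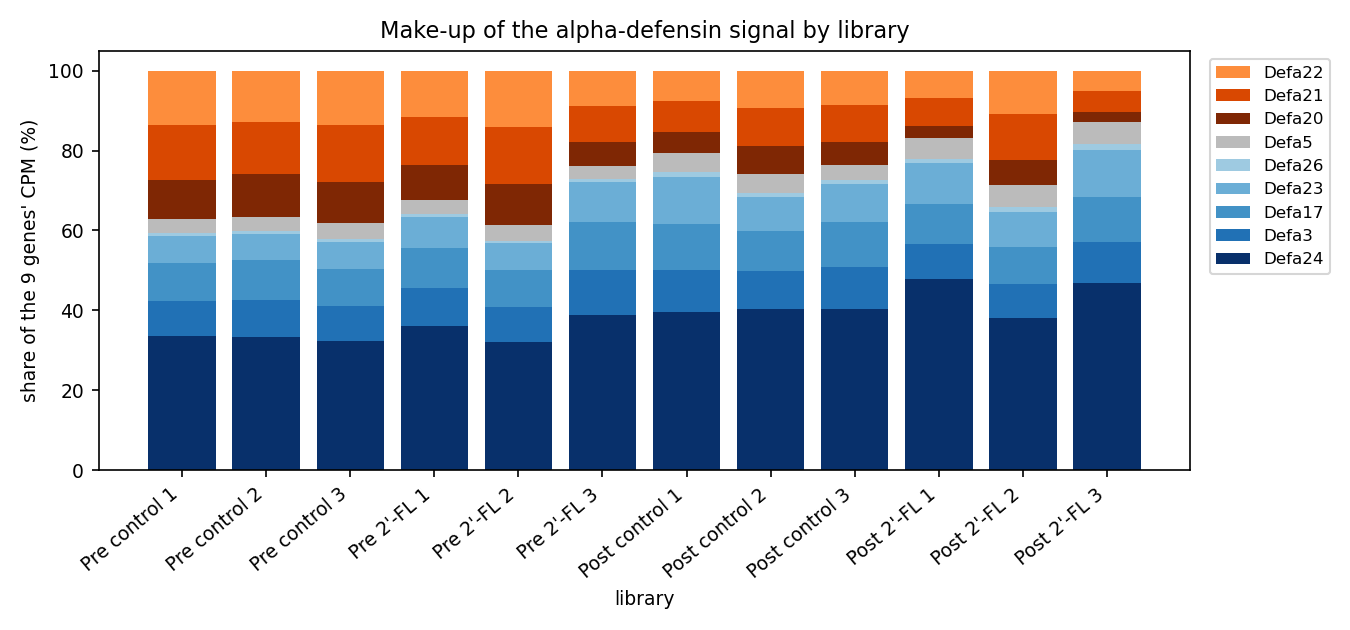
Share of each gene in the summed CPM of the 9 alpha-defensins, in percent, for each of the 12 libraries (stacked bars, blue for the Defa24 group, grey for Defa5, orange for the Defa21 group). The orange part spans 36.6% to 38.1% in Pre control and 20.7% to 25.8% in Post control, and in the 2'-FL arm it overlaps between Pre and Post.

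Most other alpha-defensin genes were also lower in the control arm after resection. Of the other 30 alpha-defensin genes and pseudogenes, 20 were tested and 10 had no counts. In the control arm 17 of the 20 were called lower as tested (log2 changes from -3.01 to -1.22 over the 20) and 17 corrected. Of all genes 6.33% and 5% were. In the 2'-FL arm 7 were called lower as tested and 18 corrected, against 30% and 14.8% of all genes. Between the Post groups 15 were called higher as tested and 1 corrected, against 18.8% and 10.3% of all genes. The 20 are not separate observations. Defa-rs7 has the counts of Defa23, the coding sequence of Gm15308 is identical to that of Defa20, and other pairs had equal counts. By level the first of these under the name Defa were Defa2 at 2999 ± 1111 CPM in Pre control and 406 ± 102 in Post control (SD, n = 3) and Defa-rs7 at 1895 ± 709 and 622 ± 127. Defa2, whose counts gave Defa20 a ratio of 0.821 to 0.966 to it in all libraries, changed by -2.89 in the control arm, close to Defa20 at -2.93. Defa-ps1 was the 1 gene called higher in corrected Post 2'-FL; it is a pseudogene without a transcript length, so that the correction did not act on it, at 3.83 ± 1.19 and 20.3 ± 9.87 CPM in the Post groups.

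Other Paneth cell genes fell with the alpha-defensins in the control arm. Of 20 genes on a Paneth cell list, 11 were called lower and 0 higher as tested (median log2 change of -1.53), and 11 and 0 corrected. Among all genes 6.33% were called lower as tested and 5% corrected. Lysozyme, Lyz1, stood at 7728, 8518 and 12992 CPM in Pre control and 3213, 2501 and 2126 CPM in Post control and changed by -1.90 ± 0.46 (adjusted p = 0.0215). The precursor-cutting enzyme Mmp7 stood at 127, 185 and 277 CPM in Pre control and 60.2, 57.4 and 39.5 CPM in Post control and changed by -1.91 ± 0.44 (adjusted p = 0.0182). The ribonuclease Ang4 changed by -2.27 ± 0.46 (adjusted p = 0.0106), the lectin Itln1 by -1.79 ± 0.41 (adjusted p = 0.0171) and the phospholipase Pla2g2a by -2.28 ± 0.55 (adjusted p = 0.0215). The others called lower were Habp2 at -2.85, the Wnt ligand Wnt3 at -2.35, Clps at -1.89, the transcription factor Sox9 at -1.57, Pnliprp2 at -1.50 and the receptor tyrosine kinase Kit at -1.26. Not called were Egf at -2.25, Ephb3 at -1.44, Spink4, Dll4 and Fzd5 at -0.50, -0.48 and -0.48, Rnase1 at -0.35, Tgfa at -0.15, Mptx2 at -0.10 and Nod2 at -0.03.

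In the 2'-FL arm 14 of the 20 Paneth cell genes were called lower and 2 higher as tested, and 11 lower and 0 higher corrected. Of all genes 30% were called lower as tested and 14.8% corrected. The share called higher in this arm is not given. Nod2, Wnt receptor gene Fzd5, Sox9, Dll4, Egf, Tgfa and Ephb3 were called lower only as tested, and Lyz1, Mmp7, Itln1 and Rnase1 only corrected. Lyz1 changed by -0.37 ± 0.45 (adjusted p = 0.5) as tested and by -1.39 ± 0.41 (adjusted p = 0.018) corrected, and Mmp7 by -0.01 ± 0.42 (adjusted p = 0.981) and -1.17 ± 0.37 (adjusted p = 0.0234). The 2 called higher as tested were Mptx2 at 1.28 and Spink4 at 1.35, with corrected values of -0.52 and 0.11. Between the Post groups 5 of the 20 were called higher and 2 lower as tested, the latter being Tgfa at -1.40 and Fzd5 at -1.19. Among all genes 18.8% were called higher there as tested and 10.3% corrected. Corrected, 1 was called higher, which was Mmp7 at 1.09 ± 0.37 (adjusted p = 0.0481), and 2 lower, Pnliprp2 at -1.30 ± 0.33 (adjusted p = 0.0148) and Tgfa at -0.93 ± 0.28 (adjusted p = 0.0295). Within a library the summed alpha-defensins were 2.60 to 3.04 times Lyz1 in the Pre libraries, 2.04 to 2.67 times in Post control and 1.82 to 2.40 times in Post 2'-FL. These ratios are not corrected for length, and the Lyz1 transcript is longer, at 1263 nt. Corrected, the difference between the Post groups was 0.76 ± 0.41 in Lyz1, and the median of the 9 members was -0.07.

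The genes whose pattern over the 12 libraries was most like the alpha-defensins included 5 genes of the Paneth cell list among the first 10. Among 10107 other genes with a mean of at least 5 CPM, the highest Pearson r of log2 CPM with the log2 sum of the 9 members belonged to Itln1 at 0.989, Bambi at 0.981, Clps at 0.980, Ang4 at 0.978, Lyz1 at 0.977, Cd24a at 0.958, Adi1 and Pla2g2f at 0.949, Pla2g2a at 0.939 and Esp38 at 0.933. With the group means taken off, r was 0.966, 0.952, 0.964, 0.969, 0.965, 0.917, 0.958, 0.868, 0.940 and 0.838 in the same order, so that they also varied together between libraries of 1 group. Esp38 took 0.398% to 14.1% of all counts in a library. Mmp7 ranked 12 at 0.929, and the goblet cell mucin Muc2 ranked 1500 at 0.479. These values describe 12 libraries that share depth, scaling and the length trend.

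As a list, genes that fold, cut and release secretory proteins showed little change in the control arm. Among all genes 6.33% were called lower there as tested and 5% corrected. No such share is given for genes called higher there. Of 15 genes for processing and secretion, 2 were called lower in the control arm (Mmp7 and the endoplasmic reticulum stress sensor Ern2 at -0.95) and 0 higher, with a median of 0.00, and corrected 1 lower and 2 higher, with Ern2 no longer called (adjusted p = 0.0578); the stress factor Xbp1 stood at 0.39 ± 0.25 (adjusted p = 0.309) and the autophagy gene Atg16l1 at 0.39 ± 0.19 (adjusted p = 0.177). Of 12 transcription factors of Paneth and secretory cells, 2 were called lower (Sox9 and Tcf4, the latter at -0.98 and not called when corrected, with adjusted p = 0.0575), and the secretory master factor Atoh1 stood at -0.44 ± 0.23 (adjusted p = 0.213). Of 12 tested genes for other antimicrobial proteins, 1 was called lower (Lyz2 at -1.31) and 1 higher (Slpi at 2.07). The lectin Reg3b stood at 0.11 ± 0.69 (adjusted p = 0.932) and Reg3g at 0.48 ± 0.71 (adjusted p = 0.679) in the control arm, and between the Post groups they differed by 3.41 ± 0.76 (adjusted p = 0.00355) and 2.63 ± 0.75 (adjusted p = 0.0138), corrected 2.17 ± 0.63 (adjusted p = 0.0264) and 1.43 ± 0.64 (adjusted p = 0.122).

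Markers of neighbouring cell types and of bowel segment moved in part with the alpha-defensins, and their part in the result was not tested. Among all genes 6.33% were called lower in the control arm (5% corrected) and 30% in the 2'-FL arm (14.8% corrected). Shares of all genes called higher after resection are not given here, so that counts of list genes called higher have no share beside them. Of 12 crypt stem cell genes 7 were called lower in the control arm and 0 higher (6 and 0 corrected), and in the 2'-FL arm 6 and 0 (1 and 0 corrected), with a summed level of 464 to 614 CPM in Pre control and 330.1 to 371 CPM in Post control; the stem cell receptor Lgr5 stood at -1.75 ± 0.47 (adjusted p = 0.0321) as tested and at -1.51 ± 0.47 (adjusted p = 0.0506) corrected, where it was not called. Of 12 goblet cell genes 0 were called in either direction as tested and 1 lower corrected (Muc2 at -0.78 ± 0.23 (adjusted p = 0.0426)). Muc2 had no transcript length, so that the correction did not act on its values. As tested it also stood at -0.78 ± 0.24 (adjusted p = 0.0526 in edgeR's test). The summed level of the goblet cell genes was 8396 to 10257 CPM in Pre control and 7929 to 11676 CPM in Post control. Of 14 enterocyte genes 1 was called higher. Of 9 tested myeloid cell genes 3 were called lower in the control arm (2 corrected), with summed levels of 318 to 579 CPM in Pre control and 157 to 244 CPM in Post control that did not overlap. Of 8 fibroblast genes 2 were called lower (0 corrected) with a median of -1.25, and of 7 endothelial genes 1 was (0 corrected) with a median of -1.55; in the 2'-FL arm 7 of the 7 endothelial genes were called lower (4 corrected). Of 9 tested T cell genes 1 was called lower (0 corrected), and their median was 1.10. Of 10 genes of the proximal small bowel 2 were called higher and 1 lower in the control arm (3 and 0 corrected), with summed levels of 2729 to 4254 CPM in Pre control and 4835 to 5761 CPM in Post control. Of 6 tested colon genes 1 was called higher, as tested and corrected, with summed levels of 294 to 365 CPM and 406 to 602 CPM. Of 9 tested genes of the distal small bowel 3 were called lower in the control arm, as tested and corrected: the bile acid binding protein Fabp6, the hormone Fgf15 and the cobalamin receptor Cubn. The summed level of that list was 1195 to 2598 CPM in Pre control and 1085 to 1479 CPM in Post control, and overlapped. Fgf15 stood at 12.3, 24.5 and 0.357 CPM in Pre control, at 5.92, 22.3 and 6.78 CPM in Pre 2'-FL and at 0 in all 6 Post libraries. There 3 counts, taken as an approximate upper limit for a count of 0, would be 0.301 to 0.568 CPM (counting error only). Fabp6 stood at 7.88, 166 and 0.475 CPM in Pre control and 0.308, 1.10 and 0.601 CPM in Post control. Pre control 3, with Fgf15 at 0.357 and Fabp6 at 0.475 CPM, had the highest alpha-defensin sum of its group, whereas in Pre 2'-FL the libraries had the same order in Fgf15 as in the alpha-defensin sum. Of 11 pancreas genes, listed because Clps and Pnliprp2 are also made in the pancreas, 6 stood at 0 in all libraries and 1 was tested, the elastase Cela1, which was called higher in the control arm at 1.04 ± 0.29 (adjusted p = 0.0363) (corrected 0.89 ± 0.24 (adjusted p = 0.0298)) and in the 2'-FL arm at 1.90 ± 0.29 (adjusted p = 0.000146); of 8 neutrophil genes, listed because neutrophils of other species carry alpha-defensins, 0 passed the filter on low counts.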

How the data were processed

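Small bowel RNA was measured in 12 libraries, 3 in each of 4 groups. The deposited tables hold expected counts per gene, partly fractional, so that the authors' counting divided reads between genes; the submitters' processing notes name mm10 and DESeq, while the aligner, counter, annotation and strand setting are not given in the sources used here. Entries of 1 Entrez gene were summed (35791 genes), sums were rounded to whole counts, and totals were 5663275 to 9385266, so that counting error is small for these genes. After filterByExpr 13154 genes were tested with edgeR 4.0.16 (R 4.3.3; TMM scaling, quasi-likelihood F-test over all 4 groups, 8 residual degrees of freedom, Benjamini-Hochberg adjustment); an adjusted p under 0.05 was called. In 5 comparisons the groups were compared as tested and with offsets from natural splines (4 degrees of freedom) on log2 length and GC content, which 12654 of the genes have (GENCODE M21). The correction rests on the libraries themselves, so that true changes that follow length are removed with it. The edgeR fit as tested was checked on simulated counts that held no trend with length or GC content. The correction was not part of that check. Alternatives were DESeq2 1.42.0, limma-voom (limma 3.58.1), other scalings and filters, a replicate block, and leaving out each library. Coding sequences were aligned with MAFFT 7.526.

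The members and lists were chosen with earlier results of these data known. Genes named are the 9 members, the 3 other Defa genes of highest level (1 of them is not reported here), all tested genes of the Paneth cell list, up to 3 genes of smallest p per other list, Fgf15, Fabp6, Reg3b, Reg3g and the 10 genes most alike. Xbp1, Atg16l1, Atoh1, Lgr5, Muc2, Gm15308, Gm15315 and Defa-ps1 were named after their values were seen, as were the groups by sequence identity.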

Additional observations from a re-analysis of the deposited data

How the results depend on the processing

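The fall in the control arm kept its direction for all 9 members under every alternative run, and the number called was 8 with limma-voom, 9 with DESeq2 and 3 to 9 when 1 library was left out. Shares of all genes called were worked out only for edgeR's main fits, as tested and corrected. Counts of members under the alternatives have no such share beside them. In the 2'-FL arm 3 members were called as tested, 5 with DESeq2, with library totals only or with no filter on low counts, 1 with only the groups compared and 9 under each length correction. When 1 library was left out, 1 to 6 were called as tested and 9 corrected. The median change there was -2.29 corrected for length and GC content, -2.25 corrected for length only and -2.72 with the trend fitted without the alpha-defensin genes (chosen after seeing the data), and without 1 library it was -2.61 to -2.05 corrected and up to -0.63 as tested. Defa5 ran from -0.62 to 0.18 and Defa26 from -0.63 to 0.0864 without 1 library. Between the Post groups 6 were called as tested and 0 under each length correction. Without 1 library 1 to 8 were called as tested and 0 corrected. With DESeq2 or only the groups compared 8 were called, 7 with RLE size factors or no filter and 4 with library totals. The median there reversed to -0.0657 corrected for length and GC content, -0.0387 for length only and -0.0825 with the trend fitted without the family; without 1 library it was -0.34 to 0.10 corrected and up to 1.60 as tested. In the same 3 settings Defa3 stood at -0.23, -0.16 and -0.27, Defa17 at -0.23, -0.17 and -0.27, Defa20 at -0.47, -0.46 and -0.47, Defa21 at -0.0657, -0.0387 and -0.0730, and Defa22 at -0.0815, -0.0731 and -0.0886; in the first and last, Defa5 stood at -0.0573 and -0.0825 and Defa23 at -0.0451 and -0.0804. The median difference before resection was -0.0701 to 0.60 without 1 library. The interaction median reversed to -0.32, -0.24 and -0.37 under the 3 corrections, was -0.63 to 0.01 corrected and up to 1.57 as tested without 1 library, and 1 member (Defa5) was called with DESeq2 and 0 to 1 without 1 library. The cause of these differences was not tested. Same-numbered libraries correlated at -0.225 to 0.419 in their deviations from the group means, not above 0.1 in every pair, so that the numbers were not taken as pairs; with the replicate block 6 members were called lower in the control arm, 3 lower in the 2'-FL arm and 6 higher between the Post groups.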
